A study of Mus musculus with 8 samples.

Results

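The mRNAs of 8 named genes of the poly(A) tail machinery were followed in cultured mouse hippocampal neurons after knockdown of the deadenylase CNOT7. They encode 2 nuclear poly(A) polymerases (Papola and Papolg), 3 poly(A)-binding proteins (Pabpc1, Pabpc4 and Pabpn1) and 3 proteins that bind the cytoplasmic poly(A)-binding protein (Paip1, Paip2 and Paip2b). The members were chosen by gene name, and all 8 had an entry among the 23845 of the gene table. All 8 also passed the filter on low values (averaging 1 TPM or more), as did 13681 genes in all.

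Primary hippocampal neurons were taken from mouse embryos at embryonic day 19 and infected with lentivirus at 13 to 15 days in vitro. The virus carried a hairpin RNA against CNOT7 (knockdown) or a scrambled hairpin, and cells were harvested at day 17 to 19 of culture. All groups thus shared the steps of culture and infection, but whether they came from the same culture is not stated. Poly(U) agarose captured the polyadenylated RNA, which was released at 75 °C, either directly (total poly(A) RNA) or after a wash at 50 °C (long tails), which per the labels takes away tails under 50 nucleotides. This gave 4 groups of 2 libraries each: knockdown long tails, scrambled long tails, knockdown total and scrambled total. The sources used here do not give the strain of the mice, the number of hairpins, the promoter that drove them or whether replicate libraries stem from different cultures. A p-value therefore measures only the spread between these samples, which may be technical.

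A poly(A) tail is made in the nucleus, where the cleavage machinery cuts the new transcript and recruits a poly(A) polymerase. The nuclear protein PABPN1 coats the growing tail and helps to set its length. In the cytoplasm PABPC1 and its relative PABPC4 cover the tail, contact the translation initiation factor eIF4G at the other end of the mRNA, and take part in recruiting the deadenylases, among them CCR4-NOT with its catalytic subunit CNOT7. PAIP1 binds PABPC1 and stimulates translation, whereas PAIP2 and PAIP2B bind it, displace it from poly(A) and repress translation. In mouse brain PAIP2 is known for its part in synaptic plasticity and memory.

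The deposited values are TPM (transcript abundance scaled to a fixed total per library), rounded to whole numbers, a share of each library that already takes transcript length into account, so that levels of different genes can be set side by side. Library sums were between 999689 and 999809 and the read depth is unknown. The targeted Cnot7 mRNA was at 9 and 11 TPM in knockdown long tails against 28 and 31 TPM in scrambled long tails, and at 12 and 16 TPM in knockdown total RNA against 42 and 36 TPM in scrambled total RNA. The ribosomal RNA precursor Rn45s took 2.898% to 18.56% of TPM. Knockdown long-tail library 2 had the lowest share of it and stood apart from the other 7 on the first principal component (a score of 38.8, against −19.7 to 9.19). All 12 of 12 neuron markers were present. They summed to 6173 to 6340 TPM in knockdown and 5507 to 5630 TPM in scrambled long tails, and to 6218 to 8040 TPM in knockdown and 6107 to 7519 TPM in scrambled total RNA. The 6 of 6 inhibitory neuron markers summed to 1399 to 2000 TPM in knockdown and 1434 to 1652 TPM in scrambled long tails, and to 1174 to 1453 TPM in knockdown and 1270 to 1439 TPM in scrambled total RNA. The 8 of 8 astrocyte markers summed to between 2557 and 4954 TPM. Oligodendrocyte markers (10 of 10 present) summed to 1067 to 1355 TPM in knockdown and 1585 to 1988 TPM in scrambled long tails, and to 1244 to 1255 TPM in knockdown and 1826 to 1981 TPM in scrambled total RNA. Of these markers the authors' deposited tables list Tubb3 upward and Mbp downward after knockdown in both fractions. Microglia markers summed to at most 8 TPM, with Aif1, Cx3cr1 and Itgam at 0 in every library, and endothelial and mural markers to at most 333 TPM with Pecam1 and Cldn5 at 0. Most of the endothelial and mural sum was Acta2 (138 to 318 TPM), while Kdr, Pdgfrb, Rgs5 and Flt1 were each at 20 TPM or less. The part of the cell type makeup in the values below was not tested, and in these bulk libraries fewer cells of a type and less RNA per cell cannot be told apart.

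The 8 mRNAs covered a wide range of levels. Pabpc1 was the most abundant, at 332 TPM on average over the 8 libraries (255 to 377) and above 96.8% of the genes tested. Paip2 followed at 200.4 TPM (172 to 249), then Pabpn1 at 104 TPM (87 to 136) and Papola at 63.5 TPM (43 to 78). Below these lay Pabpc4 at 34.6 TPM (25 to 45), Paip2b at 32.2 TPM (24 to 43), Paip1 at 27.6 TPM (21 to 34) and Papolg at 9.25 TPM (5 to 13). Neighbours in the upper part of this order kept their places in all 8 libraries, down to Papola above Pabpc4. The order of Pabpc4 and Paip2b differed with treatment. Pabpc4 was the higher in 4 of 8 libraries, all of the knockdown, and the lower in every scrambled library. Paip2b was above Paip1 in 7 of 8. Papolg was below Paip1 in every library.

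**Figure D1:**
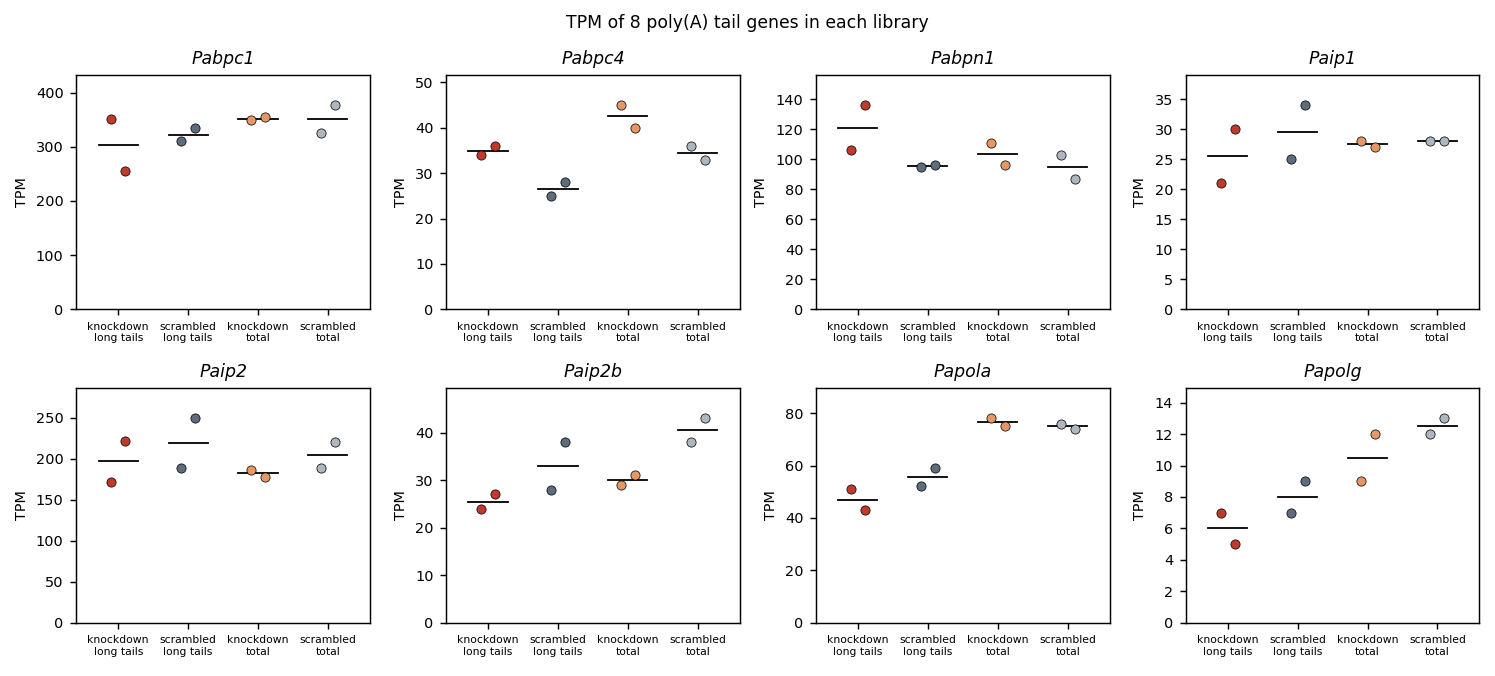
TPM of each gene (vertical axis, starting at 0) in every library of the 4 groups; points are libraries and horizontal lines are means of 2. Pabpc4 points of the knockdown lie above those of the scrambled group in both fractions, and Papola points of long tails lie below those of total RNA.

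Among the poly(A)-binding proteins, Pabpc4 mRNA was more abundant in knockdown than in scrambled libraries of both fractions, while Pabpc1 groups overlapped. PABPC4 is a cytoplasmic relative of PABPC1 first described in activated T cells. Pabpc4 was at 34 and 36 TPM in knockdown against 25 and 28 TPM in scrambled long tails. In total RNA it was at 45 and 40 TPM in knockdown against 36 and 33 TPM in scrambled libraries. The groups did not overlap in either fraction, which in this direction held for 2.71% of all genes tested. The difference in log2(TPM + 1), knockdown minus scrambled, was 0.39 in long tails (SE 0.121, 95% confidence interval 0.089 to 0.69) and 0.29 in total RNA (SE 0.121, interval −0.0092 to 0.59). Neither passed the limma test over all genes (adjusted p = 0.503 in long tails and 0.824 in total RNA). Among all genes, 95.5% had a lower difference in long tails and 91.8% in total RNA. Pabpc4 overlaps in the annotation Gm25788 and Gm22154 on its own strand and Gm12900 on the other, none of which has an entry in the gene table. Leaving out any 1 library kept the difference between 0.31 and 0.47 in long tails and between 0.21 and 0.38 in total RNA.

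Pabpc1, the main cytoplasmic poly(A)-binding protein, was at 351 and 255 TPM in knockdown against 310 and 335 TPM in scrambled long tails. In total RNA it was at 349 and 355 TPM in knockdown against 325 and 377 TPM in scrambled libraries. The groups overlapped in both fractions. The difference was −0.11 in long tails (interval −0.55 to 0.34) and 0.008 in total RNA (interval −0.44 to 0.45). The lowest value of all, 255 TPM, came from knockdown long-tail library 2, and without that library the long-tail difference was 0.12, against −0.34 without library 1.

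Pabpn1, the nuclear poly(A)-binding protein, was at 106 and 136 TPM in knockdown against 95 and 96 TPM in scrambled long tails. In total RNA it was at 111 and 96 TPM in knockdown and 103 and 87 TPM in scrambled libraries. The libraries did not overlap in long tails and overlapped in total RNA. The difference was 0.33 in long tails (SE 0.165, interval −0.082 to 0.74; limma adjusted p = 0.623) and 0.12 in total RNA (adjusted p = 1). The highest value, 136 TPM, was that of knockdown long-tail library 2, without which the difference in long tails was 0.15. The value in total RNA was 0.0032 without scrambled total library 2 and 0.24 without scrambled total library 1. Pabpn1 overlaps on the same strand another annotated gene, Gm20521, and how reads shared with it were counted was not tested.

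Both Pabpc4 and Pabpc1 carry a run of adenines in the annotated 5′ untranslated region, and these are shown because PABPC1 is known to bind such a stretch in its own mRNA and to repress its own translation. The 30-base window with the most adenines was taken from 1 GENCODE transcript per gene (build GRCm38), and adenines are in capitals. The windows of both polymerase mRNAs are given for comparison.
Pabpc4 (chr4:123282922-123282951, plus strand): gAAAAAAAAAAgcAAAAgggAAAAAAAgAA
Pabpc1 (chr15:36608840-36608869, minus strand): gAAAAAAcccAAAAAAAAtttAcAAAAAAA
Papolg (chr11:23895085-23895114, minus strand): ggAcAgAggAAggAAgAgAgggcAAgAAcA
Papola (chr12:105784740-105784769, plus strand): gAcgAAggggAAggAggAgAAgcgcttAAA
The window held 23 adenines in Pabpc4 and 22 in Pabpc1, against 14 in Papolg, 12 in Papola and a median of 10 over 20031 genes. At least 23 adenines were found in 0.619% of these genes and at least 22 in 0.849%. The remaining members had 15 (Paip2), 12 (Pabpn1), 9 (Paip2b) and 6 (Paip1). The Pabpn1 window spans an exon junction, as does that of Paip2b, in a transcript with 85 bases of 5′ untranslated region. Other transcripts of these genes, in which the same bases may lie outside that region, were not examined. The Pabpc1 window lies 333 bases and the Pabpc4 window 663 bases before the annotated start codon. The levels of both mRNAs are measured here, not their translation.

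All 3 PABP-interacting proteins had differences below 0 after knockdown in both fractions, as most genes did. The share of all genes above 0 was 33.9% in long tails and 35.2% in total RNA. Paip1 in total RNA was above 0 with quantile normalization (0.048) or scaling without Rn45s (0.020). In long tails, leaving out 1 library brought Paip1 up to 0.039 and Paip2 up to 0.052. Of the 3, only Paip2b had libraries that did not overlap in either fraction. Paip2b was at 24 and 27 TPM in knockdown against 28 and 38 TPM in scrambled long tails, and at 29 and 31 TPM in knockdown against 38 and 43 TPM in scrambled total RNA. Such separation in the downward direction held for 9.49% of all genes. The difference was −0.35 in long tails (SE 0.174, interval −0.78 to 0.088, limma adjusted p = 0.623) and −0.42 in total RNA (SE 0.174, interval −0.85 to 0.015, adjusted p = 0.825). Among all genes, 20.9% had a lower difference in long tails and 6.26% in total RNA. The long-tail difference rested in part on scrambled long-tail library 2, without which it was −0.13.

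Paip2, which shares its function with Paip2b and is the more abundant of the pair, was at 172 and 221 TPM in knockdown against 188 and 249 TPM in scrambled long tails. In total RNA it was at 186 and 178 TPM in knockdown against 189 and 220 TPM in scrambled libraries. The groups overlapped in long tails, and in total RNA the higher knockdown library lay only 3 TPM below the lower scrambled one. The differences were −0.15 in long tails (interval −0.63 to 0.33) and −0.16 in total RNA (interval −0.65 to 0.32). Paip1, the translational stimulator, was at 21 and 30 TPM in knockdown against 25 and 34 TPM in scrambled long tails, and at 28 and 27 TPM in knockdown against 28 and 28 TPM in scrambled total RNA. Its groups overlapped in long tails and shared a value in total RNA, with differences of −0.21 (interval −0.75 to 0.33) and −0.025 (interval −0.57 to 0.51).

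Of the nuclear poly(A) polymerases, Papola was at nearly the same level in total RNA with and without knockdown, and Papolg was lower on average with a wide interval. Papola, the canonical poly(A) polymerase, was at 78 and 75 TPM in knockdown against 76 and 74 TPM in scrambled total RNA (difference 0.028, interval −0.28 to 0.34). Among long tails the values were 51 and 43 TPM in knockdown against 52 and 59 TPM in scrambled libraries. These groups lay 1 TPM apart, and the difference was −0.24 (interval −0.55 to 0.072, limma adjusted p = 0.625), or −0.12 without knockdown long-tail library 2. Papolg, a related nuclear polymerase, was at 7 and 5 TPM in knockdown against 7 and 9 TPM in scrambled long tails, and at 9 and 12 TPM in knockdown against 12 and 13 TPM in scrambled total RNA. Its groups met at 7 TPM in long tails and at 12 TPM in total RNA. The difference was −0.37 in long tails (interval −0.92 to 0.18, limma adjusted p = 0.659) and −0.24 in total RNA (interval −0.79 to 0.31, adjusted p = 0.975). Without knockdown long-tail library 2 the long-tail value was −0.16, and without knockdown total library 1 the value in total RNA was −0.053. At this level rounding to whole TPM limits what can be seen.

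Counted together, 0 of the 8 passed the limma test after knockdown in either fraction at an adjusted p under 0.05, as did 0% of all genes tested. The targeted Cnot7 missed it too, with differences of −1.48 in long tails and −1.42 in total RNA (limma adjusted p = 0.173 and 0.153). The authors' deposited tables list Cnot7 downward in both fractions. Missing this threshold thus does not show that a level was unchanged. In long tails 1 member (Pabpc4) had an unadjusted p under 0.05, where 8.72% of all genes did. In total RNA 0 members did, where 6.34% of all genes did. Libraries of the groups did not overlap for 2 members upward in long tails (Pabpc4 and Pabpn1; 8.91% of all genes) and for 2 downward (Papola and Paip2b; 17.1%). In total RNA they did not overlap for 1 member upward (Pabpc4; 8.68% of all genes) and for 2 downward (Paip2 and Paip2b; 20.1%). The median difference of the 8 was −0.18 in long tails and −0.0087 in total RNA, against −0.10 and −0.072 over all genes. None of the 8 was listed in either of the authors' deposited tables of changed genes, which hold 0.709% of the genes tested for long tails and 0.76% for total RNA.

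**Figure D2:**
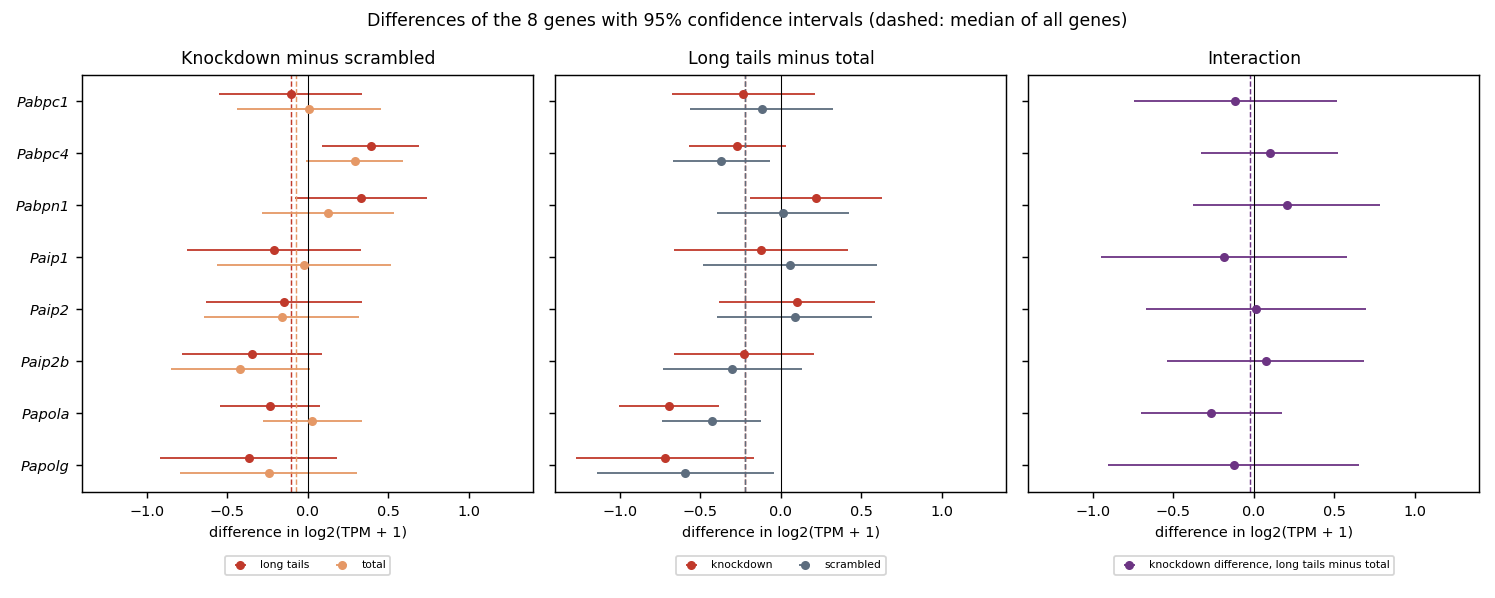
Differences in log2(TPM + 1) of the 8 genes (points) with 95% confidence intervals from limma (lines) for knockdown minus scrambled, long tails minus total, and the interaction; dashed lines are medians of all genes. The interval of Pabpc4 for knockdown minus scrambled in long tails lies above 0. For long tails minus total, those of Papola and Papolg lie below 0, as does that of Pabpc4 in scrambled neurons.

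Comparing the fractions asks which mRNAs took a smaller or larger share of the long-tail library than of the total library. TPM is a share, so that a lower value in long tails is a smaller share of that library and not a measured tail length. Both polymerase mRNAs took a smaller share of long tails than of total RNA, whether or not CNOT7 was knocked down. Papola was at 51 and 43 TPM in long tails against 78 and 75 TPM in total RNA of knockdown neurons, and at 52 and 59 TPM in long tails against 76 and 74 TPM in total RNA of scrambled neurons. No long-tail library reached the level of a total one. The difference, long tails minus total, was −0.70 in knockdown (SE 0.124, interval −1.01 to −0.39) and −0.43 in scrambled neurons (SE 0.124, interval −0.74 to −0.12). It missed the threshold in both (limma adjusted p = 0.14 and 0.377).

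The median gene itself was lower in long tails, by −0.22 on the log2 scale in knockdown and in scrambled neurons, and quantile normalization moved these medians to 0.031 and −0.016. Relative to the median gene, Papola stood at −0.47 in knockdown and −0.21 in scrambled neurons, and 15.3% and 21.04% of genes had a lower difference. Leaving out knockdown long-tail library 1 made the Papola difference in knockdown −0.82 and its adjusted p 0.0218, when 15.5% of all genes were called. Its adjusted p ranged from 0.0218 to 0.453 over all alternatives. Without knockdown long-tail library 2 the difference was −0.58. With quantile normalization it was −0.50 in knockdown and −0.26 in scrambled neurons.

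Papolg was at 7 and 5 TPM in long tails against 9 and 12 TPM in total RNA of knockdown neurons, and at 7 and 9 TPM in long tails against 12 and 13 TPM in total RNA of scrambled neurons. The groups did not overlap in either. The difference was −0.72 in knockdown (SE 0.221, limma adjusted p = 0.146) and −0.59 in scrambled neurons (adjusted p = 0.377), or −0.50 and −0.37 relative to the median gene. With quantile normalization these differences were −0.36 in knockdown and −0.33 in scrambled neurons, and without knockdown long-tail library 2 the one in knockdown was −0.51.

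Pabpc4 was at 34 and 36 TPM in long tails against 45 and 40 TPM in total RNA of knockdown neurons, and at 25 and 28 TPM in long tails against 36 and 33 TPM in total RNA of scrambled neurons. These groups did not overlap, yet the differences of −0.27 and −0.37 were −0.048 and −0.15 relative to the median gene. In scrambled neurons the interval of the difference lay below 0 (−0.67 to −0.068, limma adjusted p = 0.377). With quantile normalization the difference in knockdown neurons was −0.006. Paip2b, at 24 and 27 TPM in long tails against 29 and 31 TPM in total RNA of knockdown neurons, likewise lay at the median gene (difference −0.23). In scrambled neurons its fractions met at 38 TPM.

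Pabpn1, Paip2 and Paip1 stood above the median gene in this comparison. Pabpn1 was at 106 and 136 TPM in long tails against 111 and 96 TPM in total RNA of knockdown neurons (difference 0.22, interval −0.19 to 0.63), and at 95 and 96 TPM in long tails against 103 and 87 TPM in total RNA of scrambled neurons (difference 0.013, interval −0.40 to 0.42). The fractions overlapped in both. Without knockdown long-tail library 2 the Pabpn1 difference in knockdown was 0.038, against 0.39 without library 1. For Paip2 the differences were 0.099 in knockdown and 0.085 in scrambled neurons, with 80.1% and 85.4% of genes lower. For Paip1 they were −0.13 and 0.057, and for Pabpc1 −0.23 and −0.12, with overlapping fractions for all of these genes. In knockdown the Pabpc1 value was −0.0040 without long-tail library 2 and −0.46 without library 1.

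In all, the fractions did not overlap for 4 of 8 members in knockdown neurons (Papola, Papolg, Pabpc4 and Paip2b) and for 3 of 8 in scrambled neurons (Papola, Papolg and Pabpc4), each time with long tails lower. This was so for 40% and 39.6% of all genes, so that these counts are near the background. By limma 0 members passed in either (0% of all genes). An unadjusted p under 0.05 was found for 2 in knockdown neurons (Papola and Papolg), against 26% of all genes. In scrambled neurons it was found for 3 (Papola, Papolg and Pabpc4), against 13.2% of all genes. The median of the 8 was −0.23 in knockdown and −0.21 in scrambled neurons, against −0.22 over all genes in each.

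Whether knockdown acted differently on the fractions was tested with the interaction (how far the long-tail difference after knockdown exceeds the one found in total RNA). It was −0.27 for Papola (SE 0.176, interval −0.70 to 0.17), 0.20 for Pabpn1 (SE 0.233, interval −0.38 to 0.78) and 0.098 for Pabpc4 (SE 0.171, interval −0.33 to 0.52). The other five lay between −0.18 (Paip1) and 0.073 (Paip2b). These values rested on single libraries. Without knockdown long-tail library 2 the interaction was −0.15 for Papola and 0.025 for Pabpn1, against −0.39 and 0.38 without library 1. For Pabpc4 it was 0.015 without knockdown total library 2 and 0.18 without library 1. By limma the adjusted p was 1 for all 8, and 0 members had an unadjusted p under 0.05, against 0.877% of all genes.

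Ratios of TPM between members of 1 library do not depend on how much of that library was ribosomal RNA. There were 10.3 and 7.08 Pabpc1 transcripts per Pabpc4 transcript in knockdown against 12.4 and 11.96 in scrambled long tails, and 7.76 and 8.88 in knockdown against 9.03 and 11.4 in scrambled total RNA. Knockdown libraries had the lower ratio in both fractions without overlap, though in total RNA the nearest values were 8.88 and 9.03. Paip2 transcripts per Paip2b transcript were 7.17 and 8.19 in knockdown against 6.71 and 6.55 in scrambled long tails, and 6.41 and 5.74 in knockdown against 4.97 and 5.12 in scrambled total RNA. Here the knockdown libraries were the higher in both fractions. The pair Pabpc1 and Pabpc4 exceeded the pair Paip2 and Paip2b by 1.96 and 1.17 times in knockdown against 1.55 and 1.26 times in scrambled long tails. In total RNA the figures were 1.83 and 1.89 in knockdown against 1.59 and 1.56 in scrambled libraries. The groups overlapped in long tails, where knockdown library 2 was the lowest, and not in total RNA. Papola to Papolg ratios were between 5.69 and 8.67 and overlapped between knockdown and scrambled libraries of both fractions. With 2 libraries a group, an exact permutation test cannot give a p under 0.333, and none was run on these ratios. Ratios with Pabpc4 or Paip2b reuse the values given above for these genes and add no separate evidence. How often ratios of other genes separate in this way was not tested.

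**Figure D3:**
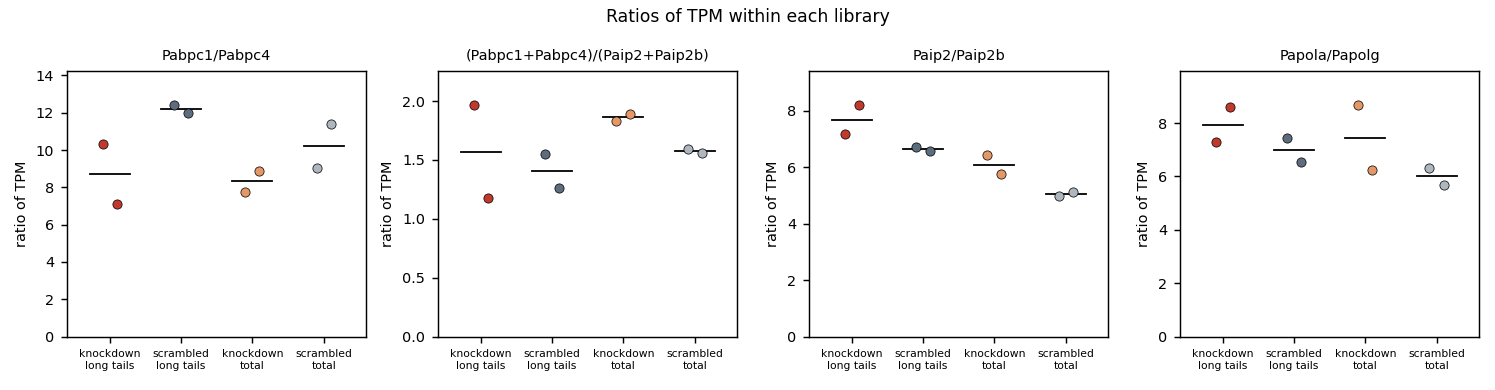
Ratios of TPM within each library (vertical axis, starting at 0) for 4 pairs or sets of members; points are libraries and horizontal lines are means of 2. Pabpc1 to Pabpc4 is lower and Paip2 to Paip2b higher in knockdown than in scrambled libraries of each fraction.

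The surrounding pathway was described with 4 lists of related genes. In cleavage and polyadenylation, 19 of 19 genes were tested, and after knockdown 5 were above 0 and 14 below in long tails and 6 above and 13 below in total RNA, with medians of −0.11 and −0.092. Over all genes 33.9% were above 0 in long tails and 35.2% in total RNA. Nudt21, the small subunit of cleavage factor I that binds UGUA upstream of poly(A) sites, stood out from the rest. It was at 93 and 78 TPM in knockdown against 56 and 55 TPM in scrambled long tails, and at 95 and 88 TPM in knockdown against 60 and 49 TPM in scrambled total RNA. The groups did not overlap in either fraction (in this direction 2.71% of all genes), and the differences were 0.61 (SE 0.145) and 0.74 (SE 0.145). In the limma model Nudt21 did not pass (adjusted p = 0.429 and 0.383), but it rose in total RNA by the authors' deposited table, where the log2 change is 0.69 with an adjusted p of 0.0413. Cpsf2, a subunit of the cleavage and polyadenylation specificity factor, was at 16 and 16 TPM in knockdown against 15 and 16 TPM in scrambled long tails, and at 25 and 23 TPM in knockdown against 20 and 22 TPM in scrambled total RNA (difference 0.18, interval −0.10 to 0.47).

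Of 7 other poly(A)-binding proteins only 2 were tested. Zc3h14, a nuclear zinc finger protein that binds polyadenosine, was at 57 and 59 TPM in knockdown against 58 and 74 TPM in scrambled long tails, and at 83 and 77 TPM in knockdown against 80 and 78 TPM in scrambled total RNA. Pabpc5 was at 4 TPM or less in every library. Pabpc2, Pabpc6 and Pabpn1l were listed at 0 throughout, as was Papolb, the testis form of the polymerase. Pabpc1, Pabpc4 and these relatives resemble each other in sequence, and how RSEM divided shared reads among them could move their values.

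Of 12 other tail-extending nucleotidyltransferases with an entry, 10 were tested. The noncanonical polymerase Papd5 was at 10 and 9 TPM in knockdown against 9 and 9 TPM in scrambled long tails, and at 18 and 18 TPM in knockdown against 14 and 13 TPM in scrambled total RNA. Its difference in total RNA was 0.39 (SE 0.115, limma adjusted p = 0.635), and the libraries did not overlap there (in this direction 8.68% of all genes). Papd4, the cytoplasmic polymerase also called GLD2, was at 17 and 16 TPM in knockdown against 20 and 21 TPM in scrambled long tails, and at 23 and 20 TPM in knockdown against 28 and 24 TPM in scrambled total RNA. Its difference in total RNA was −0.26 (SE 0.134, limma adjusted p = 0.908).

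Among 24 partners of PABPC in translation and tail turnover, all tested, 7 were above 0 and 17 below after knockdown in long tails and 9 above and 15 below in total RNA. The medians of −0.12 and −0.057 were near those of all genes. Pan2, the nuclease subunit of the other main deadenylase complex, was at 5 and 5 TPM in knockdown against 7 and 7 TPM in scrambled long tails, and at 8 and 7 TPM in knockdown against 10 and 9 TPM in scrambled total RNA. The groups did not overlap in either fraction, which in this direction held for 9.49% of all genes. The differences were −0.42 (SE 0.119) and −0.31 (SE 0.119), with adjusted p of 0.503 and 0.771 by limma. Rounding to whole TPM limits what can be seen at these low values. Eif4b, an initiation factor that stimulates the helicase eIF4A, was at 95 and 94 TPM in knockdown against 112 and 144 TPM in scrambled long tails, and at 128 and 124 TPM in knockdown against 151 and 173 TPM in scrambled total RNA. Its differences were −0.42 and −0.36 (SE 0.148 each), with adjusted p of 0.543 and 0.824 by limma. By limma 0 genes of the 4 lists passed in any comparison, and few had an unadjusted p under 0.05 after knockdown. In long tails these were 5 of 55 (9.09%, against 8.72% of all genes), with Nudt21 upward and Cstf2t, Pan2, Pan3 and Eif4b downward. In total RNA they were 3 of 55 (5.45%, against 6.34% of all genes), with Nudt21 and Papd5 upward and Pan2 downward. Cstf2t and Pan3 were named after their values were seen.

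Between fractions the lists leaned downward. Long tails were below total RNA for 18 of 19 cleavage genes in knockdown and 16 of 19 in scrambled neurons (medians −0.39 and −0.28), and for 23 of 24 PABPC partners in each (medians −0.40 and −0.32). The difference was above 0 for 29.1% of all genes in knockdown and 20.9% in scrambled neurons, with a median of −0.22 in each. Nucleotidyltransferases had medians of −0.39 in both. Nudt21 was at −0.10 in knockdown and 0.033 in scrambled neurons.

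**Figure D4:**
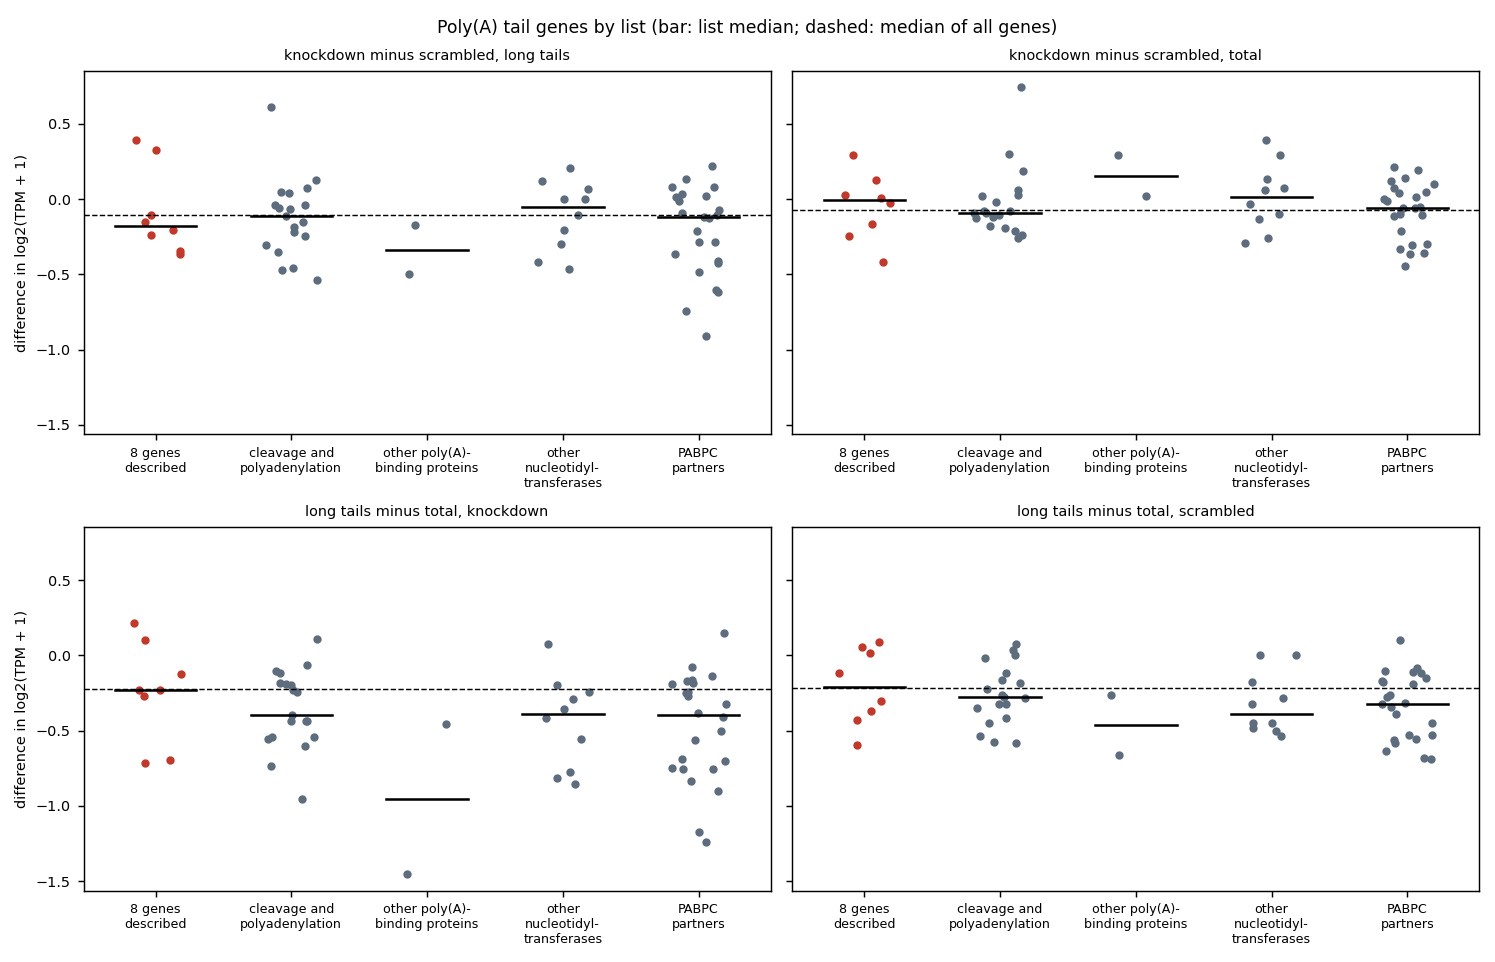
Difference in log2(TPM + 1) of each tested gene (points) by list in 4 comparisons, with list medians (solid lines) and the median of all genes (dashed). Nudt21 is the highest point of the cleavage list in both knockdown comparisons, and most points of the lower panels lie below 0.

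For each member the gene whose profile over the 8 libraries was most alike was found by the root-mean-square difference of log2(TPM + 1), centred per gene, among genes that averaged 20 TPM or more. Papola was most like Smim13 (0.0435, against a median of 0.314 over 6792 genes). Being the smallest of so many values, it lies below the median by the way it was picked, as it would for any gene. Pabpc4 was most like the splicing factor Prpf40b (0.0427), which was at 25 and 26 TPM in knockdown against 18 and 19 TPM in scrambled long tails. Paip2b was most like the synaptotagmin Syt17 (0.0461), at 31 and 36 TPM in knockdown against 40 and 52 TPM in scrambled long tails. For the other five the most alike genes were Fam65b (Papolg, 0.0578), Galnt1 (Pabpc1, 0.0778), Ube2s (Pabpn1, 0.04), Timm44 (Paip1, 0.0536) and Npc2 (Paip2, 0.034). These are descriptions over 8 libraries in which differences in RNA composition are shared by all genes.

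In the GRCm38 annotation (GENCODE M21) the members lie apart. Papola is on chromosome 12 (105784694 to 105838944, plus strand), Papolg on 11 (23862646 to 23895253, minus), Pabpc1 on 15 (36595661 to 36609668, minus) and Pabpc4 on 4 (123262351 to 123298925, plus). Pabpn1 is on chromosome 14 (54892500 to 54898169, plus), Paip1 on 13 (119428601 to 119458218, plus) and Paip2b on 6 (83805401 to 83831741, minus), and Paip2 on 18. Papolg overlaps Gm12061 on the other strand, which has no entry in the gene table. Paip2 overlaps Slc23a1 on the other strand, which was listed at 0 in all libraries.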

How the data were processed

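RNA was sequenced from 8 libraries in 4 groups of 2. The submitters' processing notes name mm10 as the build and DESeq2, DESeq, RSEM, TopHat2 and CASAVA as tools, without versions or roles. The gene table deposited by the authors gives a score: TPM, which the authors rounded to whole numbers. The authors' 2 deposited tables hold mean normalized signal, log2 fold changes, their errors (a score) and p-values for genes with an adjusted p under 0.05; their log2 sign was opposite to the TPM difference for all 97 and 104 entries and was turned. Of 23845 entries, 27 have a date in place of a symbol; they stayed in the fit.

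TPM was analysed as log2(TPM + 1), keeping 13681 genes that averaged 1 TPM or more. One limma model (3.58.1, R 4.3.3) with 4 group means, eBayes and a mean-variance trend was fitted to all libraries, with 5 two-sided contrasts and Benjamini-Hochberg adjustment over all genes of each. A difference on this scale understates that of low genes. The model was tested on simulated data. No depth is known, so no counting interval was made. The members, lists and rules were chosen with earlier results of these data known. Besides the 8 members and Cnot7, named genes were any called gene of the 4 related lists, the 2 of each related list with the smallest p after knockdown in total RNA, any listed in the authors' tables, and the gene most like each member. Sequences and coordinates came from GENCODE M21 (GRCm38, the same build as mm10), from the transcript with the longest coding sequence among those with at least 30 bases of 5′ untranslated region. Alternatives were other pseudocounts, filters and scalings, a replicate block and leaving out each library. No protein sequences were used here.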

Additional observations from a re-analysis of the deposited data

How the results depend on the processing

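The counts of genes called over the whole table depended on the settings, while 1 of 683 alternative values of the 8 members was called (Papola, long tails minus total in knockdown, without knockdown long-tail library 1). For knockdown minus scrambled in total RNA 0 genes were called, against 43 with no filter, 6 when filtering at 5 TPM, 7 at 20 TPM, 4 with quantile normalization, 1 with TPM scaled without Rn45s and 50 with only the 4 libraries of the contrast. In long tails these counts were 54, 5, 13, 1, 1 and 83 against 0. For long tails minus total they were 56 with no filter, 1 at 5 TPM, 1 at 20 TPM and 97 with 4 libraries in knockdown, and 33, 2, 1 and 87 in scrambled neurons, against 0. Leaving out 1 library gave 0 to 1 genes for knockdown in total RNA, 0 to 2 in long tails, 0 to 2125 for long tails minus total in knockdown and 0 to 57 in scrambled neurons; the lone library is then assumed to vary like the others. The highest count came without knockdown long-tail library 1, which leaves library 2, the one that stood apart. In scrambled neurons 57, 56 and 41 came without knockdown total library 1, knockdown total library 2 and knockdown long-tail library 2. The causes were not tested.

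With quantile normalization the sign turned for Paip1 after knockdown in total RNA (0.048), Paip1 and Paip2b for long tails minus total in knockdown (0.15 and 0.058) and the Paip2 interaction (−0.062). With TPM scaled without Rn45s it turned for Paip1 in total RNA (0.020) and the Paip2 interaction (−0.055). Leaving out a library turned the sign of small differences. After knockdown these ranged from −0.099 to 0.11 for Pabpc1 in total RNA, and in long tails from −0.34 to 0.12 for Pabpc1, −0.46 to 0.039 for Paip1 and −0.35 to 0.052 for Paip2. For long tails minus total they ranged from −0.37 to 0.12 for Paip1 and −0.081 to 0.28 for Paip2 in knockdown, and from −0.11 to 0.13 for Pabpn1, −0.16 to 0.27 for Paip1 and −0.12 to 0.29 for Paip2 in scrambled neurons. Interactions ranged from −0.33 to 0.082 for Papolg, −0.34 to 0.11 for Pabpc1, −0.43 to 0.065 for Paip1, −0.19 to 0.22 for Paip2 and −0.14 to 0.29 for Paip2b. Differences of Pabpc4, Paip2b, Pabpn1, Papola and Papolg after knockdown kept their sign in both fractions under every alternative run. In total RNA they came close to 0 for Pabpn1 (lowest 0.0032) and Papola (lowest 0.00012).

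The labels give no pairing, and same-numbered libraries deviated together across genes for 5 of 6 pairs of groups (r from 0.245 to 0.759) but not for knockdown total and long tails (r = −0.116). With the replicate number as a block 0 genes were called in every comparison. With crossed numbers in the 4 knockdown libraries, chosen after seeing the data, 0 were called for long tails minus total. Papolg has no value when filtering at 20 TPM, since it averaged 9.25 TPM.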
